A study of Mus musculus with 5 samples.

Results

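Interleukin-1 family and inflammasome genes were measured in CD44-low CD4 T cells of the mouse colon. The cells were sorted out of its lamina propria, a layer of connective tissue under the epithelium. The genes are Il1a, Il1b, Il18, Il1rn, Il1r2, Il1r1, Il1rl1, Nlrp3, Casp1 and Pycard, and each was represented by the probe set that carries its symbol alone and has the highest mean over all 5 arrays. A probe set was found for 8 of these 10 genes, out of 19937 genes in all, and Il1r1 and Il1rl1 were not analysed here. The genes were chosen by their family and with the differences between conditional and control arrays already known, so their differences are given as a description and no test of them is reported.

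Conditional mice (CD4cre/Cnb1flox, 3 arrays) carried a Cre recombinase under CD4 control and a floxed Cnb1 gene, which encodes the regulatory B subunit of the phosphatase calcineurin (gene symbol Ppp3r1). The control mice (2 arrays) are labelled both WT and CD4neg/Cnb1flox. The second name gives them the floxed gene and no Cre, in which case the floxed allele is shared by all arrays. CD4-driven Cre acts in the thymus before the CD4 and CD8 lineages part and is therefore not confined to the sorted cells. No ages or drug treatments are stated, and the labels tie no array to a number of mice, although the series speaks of 3 independent experiments with 3 to 5 mice per group. The p-values below therefore measure the spread between these arrays, which may be technical.

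Interleukin-1 alpha and beta are inflammatory cytokines that signal through the same receptor and activate NF-kB by way of MyD88 and IRAK kinases. Il1rn encodes the receptor antagonist that competes with both, and Il1r2 encodes a decoy receptor that binds the cytokines without signalling. Interleukin-1 beta and interleukin-18 are made as precursors that caspase-1 cleaves once a sensor such as NLRP3 has assembled with the adaptor ASC (gene symbol Pycard) into an inflammasome, whereas the interleukin-1 alpha precursor is active without caspase-1. Myeloid cells are the best known source of these cytokines in the gut, and T cells there are known as responders.

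All values are log2 signals after RMA, a joint normalization of the arrays, and a difference is the conditional mean minus the control mean on that scale. Array medians lay between 7.12 and 7.23. The targeted gene, Ppp3r1, read 8.64, 8.83 and 8.77 on conditional replicates 1, 2 and 3 and 8.99 and 8.60 on control replicates 1 and 2, which overlap; the sources used here do not say whether its probe set lies in the deleted part. Control replicate 1 stood apart from the other arrays. The mean over 9 measured T cell markers was 8.24 there, 11.13 on control replicate 2 and 10.77 to 11.06 on the conditional arrays, and the mean over 14 epithelial markers was 9.71 on control replicate 1, 8.30 on control replicate 2 and 7.39 to 7.82 on the conditional arrays. The difference of each of the 8 measured members is therefore also given against each control array. In these bulk samples, fewer cells of a type and less RNA per cell cannot be told apart.

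The promoters of 4 of the genes are shown, those with the 3 largest differences (Il1a, Il1b and Nlrp3) and that of Il18, the member with the lowest difference. They are the 250 bases upstream of the most 5′ start in the RefSeq promoter table (build GRCm38.p6), printed 5′ to 3′ on the strand of the gene: Il1a at chr2:129309973-129310222, minus strand; Il1b at chr2:129371140-129371389, minus strand; Nlrp3 at chr11:59541319-59541568, plus strand; and Il18 at chr9:50554450-50554699, plus strand. Capitals mark GGAAA on either strand (TTTCC when read on the printed strand), the core letters bound by NFAT, the factor that calcineurin activates.
Il1a: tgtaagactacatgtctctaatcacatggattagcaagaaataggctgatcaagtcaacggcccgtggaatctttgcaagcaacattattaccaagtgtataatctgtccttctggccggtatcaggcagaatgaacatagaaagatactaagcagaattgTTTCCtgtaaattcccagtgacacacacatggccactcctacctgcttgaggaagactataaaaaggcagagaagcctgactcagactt
Il1b: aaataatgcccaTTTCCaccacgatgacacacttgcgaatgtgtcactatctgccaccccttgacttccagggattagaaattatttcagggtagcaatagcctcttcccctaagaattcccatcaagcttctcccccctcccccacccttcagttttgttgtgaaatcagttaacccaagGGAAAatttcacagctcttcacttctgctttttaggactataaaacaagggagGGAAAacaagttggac
Nlrp3: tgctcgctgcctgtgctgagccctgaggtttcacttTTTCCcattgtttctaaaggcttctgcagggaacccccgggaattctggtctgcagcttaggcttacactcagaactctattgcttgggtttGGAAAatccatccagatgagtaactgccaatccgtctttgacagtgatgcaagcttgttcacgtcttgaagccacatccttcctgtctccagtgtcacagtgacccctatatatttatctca
Il18: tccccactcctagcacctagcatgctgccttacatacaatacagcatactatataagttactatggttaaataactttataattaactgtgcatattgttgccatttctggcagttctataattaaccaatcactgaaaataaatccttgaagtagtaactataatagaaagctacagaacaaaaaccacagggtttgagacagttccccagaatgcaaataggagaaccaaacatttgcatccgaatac

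The window of Il1b held 3 matches to GGAAA, that of Nlrp3 held 2, that of Il1a held 1 and that of Il18 held 0. Of the windows not printed, that of Pycard, which was lower in conditional cells, held 2. Those of Il1rn and Casp1 held 1 each, and that of Il1r2, which was higher in conditional cells, held 0. Of the 8 measured members 6 had at least 1 match, and of 27025 RefSeq genes 55.6% had one in the same window, so the letters are common. A match to the AP-1 letters TGANTCA, searched on both strands like every motif here, lay in the windows of Il1a and Il1rn, against 6.85% of all genes. TATAAA was found for Il1a, Il1b and Il18, against 13% of all genes. GAGGAA, letters of the myeloid factor PU.1 that can overlap GGAAA, was found for Il1a, Casp1 and Pycard (23.1% of all genes), TTGCNNAA of C/EBP for Pycard (9.55%), TTCNNNGAA of STAT factors for Il1r2 (7.14%) and the NF-kB motif for Nlrp3 (7.03%). These are matches of letters in a window and not binding sites.

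Among the ligands, Il1a and Il1b were higher in conditional cells and Il18 was lower. Il1a, the gene of interleukin-1 alpha, read 10.45, 10.24 and 10.81 on conditional replicates 1, 2 and 3 and 5.38 and 5.09 on control replicates 1 and 2. The control arrays lay close together and far below every conditional array. The group means were 10.50 ± 0.291 (SD, n = 3) and 5.24 ± 0.202 (SD, n = 2), a difference of 5.27 or 38.5-fold, which ranked 3 of 19937 genes from the most raised. The control mean lay at the 13.3 percentile of all genes and the conditional mean at the 94.1 percentile, and with no call against background the fold is approximate.

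Il1b, the gene of interleukin-1 beta, read 10.66, 10.9995 and 11.24 on the conditional arrays and 8.41 and 6.96 on control replicates 1 and 2. Every conditional array was above both controls, and the controls differed from each other by 1.45. The means were 10.97 ± 0.292 (SD, n = 3) and 7.69 ± 1.02 (SD, n = 2), so the difference of 3.28 became 2.56 with control replicate 1 and 4.005 with control replicate 2 as the only control. Il18, the gene of interleukin-18, read 5.11, 5.13 and 4.97 on the conditional arrays against 6.45 and 5.62 on the controls. All conditional values lay below both controls, at a mean of 5.07 ± 0.0868 (SD, n = 3) against 6.04 ± 0.590 (SD, n = 2), a difference of -0.96, or -1.38 from control replicate 1 and -0.54 from control replicate 2. The conditional mean of Il18 was at the 11.2 percentile of all genes.

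**Figure D1:**
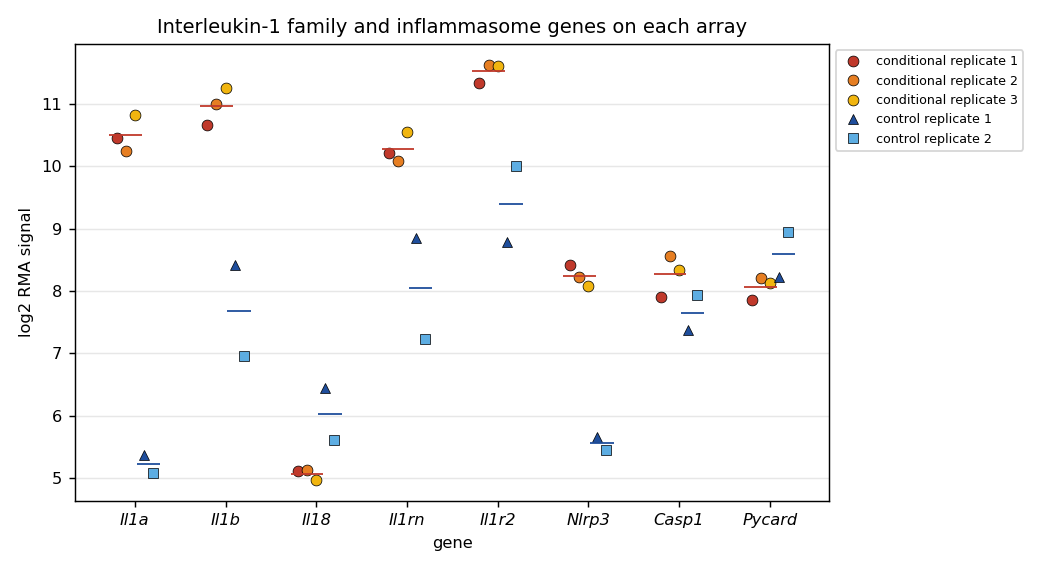
Log2 RMA signal of the 8 measured genes (horizontal axis) on each of the 5 arrays, circles for conditional replicates 1 to 3, a triangle for control replicate 1 and a square for control replicate 2, with short lines at the group means. Il1a and Nlrp3 show the tightest pairs of control values, at 5.38 and 5.09 and at 5.67 and 5.45, and the Il1b, Il1rn and Il1r2 controls are spread by more than 1.

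The antagonist and the decoy receptor were higher in conditional cells together with the agonists. Il1rn, the receptor antagonist gene, read 10.21, 10.08 and 10.55 on the conditional arrays and 8.85 and 7.24 on control replicates 1 and 2. The groups did not overlap, and the controls were 1.61 apart. The difference was 2.24, from 10.28 ± 0.238 (SD, n = 3) against 8.04 ± 1.14 (SD, n = 2), or 1.43 with control replicate 1 and 3.04 with control replicate 2 as the only control. Il1r2, the decoy receptor gene, read 11.33, 11.62 and 11.61 on the conditional arrays and 8.78 and 10.01 on the controls. Here control replicate 1 was the lower control, the opposite order to Il1b and Il1rn. Its means were 11.52 ± 0.166 (SD, n = 3) and 9.39 ± 0.867 (SD, n = 2), and the difference of 2.13 became 2.74 with control replicate 1 and 1.51 with control replicate 2 as the only control.

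The inflammasome genes went different ways. Nlrp3, the sensor gene, read 8.42, 8.23 and 8.08 on the conditional arrays and 5.67 and 5.45 on the controls. The controls were nearly equal and every conditional array was higher, with means of 8.24 ± 0.168 (SD, n = 3) and 5.56 ± 0.156 (SD, n = 2), a difference of 2.68 or 6.42-fold. Casp1, the protease gene, read 7.91, 8.56 and 8.34 on the conditional arrays and 7.37 and 7.94 on the controls. These groups overlapped, since conditional replicate 1 lay just below control replicate 2, and the difference was 0.61, or 0.89 from control replicate 1 and 0.33 from control replicate 2. Pycard, the adaptor gene, read 7.86, 8.21 and 8.14 against 8.22 and 8.95. The conditional values were all lower, but conditional replicate 2 and control replicate 1 were nearly equal, and the difference was -0.52, or -0.15 against control replicate 1 and -0.89 against control replicate 2.

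Of the 8 members, 7 had groups that did not overlap, where 30.5% of all genes did; 5 of the 7 were higher (17.4% of all genes) and 2 were lower (13.1%). The members were chosen with this comparison known, so nothing is read from these counts. Differences above 2 were seen for 5 members and for 0.371% of all genes. The median difference of the 8 was 2.18, against 0.03 over all genes, with 1.99 from control replicate 1 and 2.15 from control replicate 2. Each of the 8 kept its sign against either control array.

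**Figure D2:**
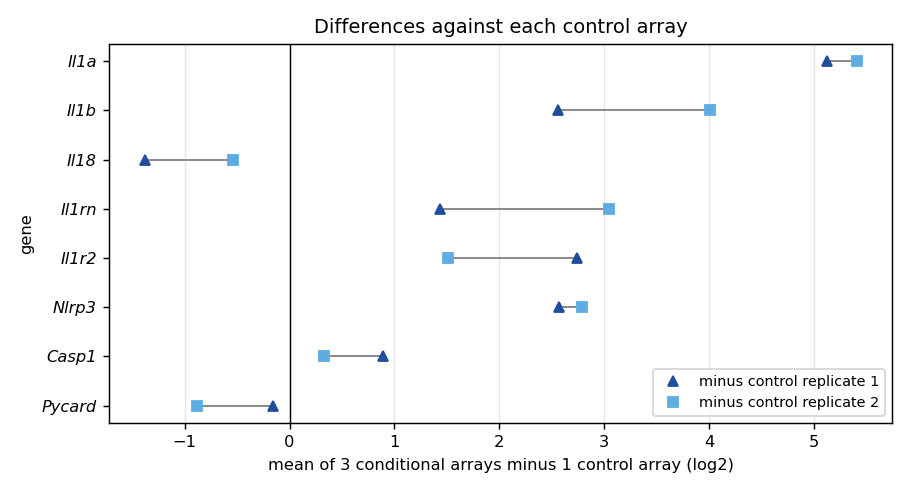
Mean of the 3 conditional arrays minus 1 control array (horizontal axis, log2) for each of the 8 genes, triangles for control replicate 1 and squares for control replicate 2, joined by a line. Il1a (5.12 and 5.41) and Nlrp3 (2.57 and 2.79) differ little between the controls, while the 2 values of Il1b, Il1rn and Il1r2 lie more than 1 apart.

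The control arrays ordered the members in opposing ways. Il1b, Il1rn and Il18 were higher on control replicate 1 than on control replicate 2, by 1.45, 1.61 and 0.83, and Il1r2, Pycard and Casp1 were lower there, at -1.23, -0.73 and -0.56. Il1a and Nlrp3 differed by 0.29 and 0.22 between the controls. The T cell markers had a median of -2.76 for the same subtraction, and the epithelial and stromal markers had medians of 1.57 and 1.72. Whether the makeup of the sorted cells had a part in the spread of the members between the controls was not tested.

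Over the 5 arrays, profiles were compared after each gene was centred on its mean, as a description with the mean absolute difference as the measure. The search covered 17137 genes and left out predicted genes, small RNAs, olfactory and vomeronasal receptors and antigen receptor segments. The genes nearest to Il1a were Klrc1 (0.272), which encodes the NKG2A receptor, Clec4e (0.286), a pattern recognition receptor, and Kcnma1 (0.472), a potassium channel. Nearest to Il1b were Nmrk1 (0.0960), Slc7a11 (0.305) and Klrc2 (0.331). Nearest to Il1rn were Mpp7 (0.143), Ern1 (0.221) and Cd14 (0.236), and nearest to Il1r2 were Camk4 (0.0840), a calcium-dependent kinase of T cells, Tnfrsf25 (0.0913) and Sytl3 (0.0934). Among the members themselves, Nlrp3 and Il1r2 were the closest pair at 0.433 and Il1a and Il18 the farthest at 2.99, and Il1a lay nearer to Il1b (0.953) than to any other member.

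Of the members, Il1a, Il1b, Il1rn, Il1r2, Il1r1 and Il1rl1 lie in gene clusters of the family, which the choice of members did not use. On chromosome 1 the protein-coding order in RefSeq is Il1r2, Il1r1, Il1rl2, Il1rl1, Il18r1, Il18rap and Slc9a4. Il18r1, the ligand-binding chain of the interleukin-18 receptor, read 11.48, 11.79 and 11.78 on the conditional arrays and 7.32 and 9.42 on the controls. Il18rap, its accessory chain, read 9.81, 10.10 and 10.18 against 6.33 and 8.06. For both genes the groups did not overlap and control replicate 1 was the lower control, as for Il1r2. The differences were 3.31 ± 0.618 (SE, limma, adjusted p = 0.116) and 2.84 ± 0.517 (SE, limma, adjusted p = 0.114), and neither passed the threshold. Without control replicate 1 they were 2.26 and 1.97, where a single control array leaves no spread between controls. Il1rl2, the interleukin-36 receptor gene that lies between them and Il1r2, was at -0.62 and Slc9a4, a sodium-proton exchanger gene at the end of the cluster, at 0.17. Against control replicates 1 and 2 in turn, Il1rl2 was at -0.86 and -0.38 and Slc9a4 at 0.43 and -0.077.

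On chromosome 2, Il1a and Il1b are adjacent coding genes. The next genes beyond Il1a, Ckap2l and Slc20a1, differed by 0.73 and 0.45, and Slc20a1 was at 0.79 against control replicate 1 and 0.099 against control replicate 2. Il1rn lies in another stretch of that chromosome with the interleukin-36 genes. Il1f9, which encodes interleukin-36 gamma, read 10.13, 9.73 and 7.59 on the conditional arrays and 5.51 and 5.45 on the controls. Every conditional array was higher, and conditional replicate 3 was well below the other two. The difference of 3.67 ± 0.789 (SE, limma, adjusted p = 0.144) did not pass. Without conditional replicate 3 it was 4.46, again short of the threshold (limma, adjusted p = 0.0723). Without control replicate 1 it was 3.71 and without control replicate 2 it was 3.64. The genes around it did not share this: Il1f8 (interleukin-36 beta) differed by -0.01, Il1f6 (interleukin-36 alpha) by 0.16, Il1f5 (the interleukin-36 antagonist) by 0.14 and Il1f10 by 0.13, and none passed (limma, adjusted p from 0.661 to 0.986). Psd4, on the far side of Il1rn, was at 1.02, or 1.81 against control replicate 1 and 0.22 against control replicate 2.

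**Figure D3:**
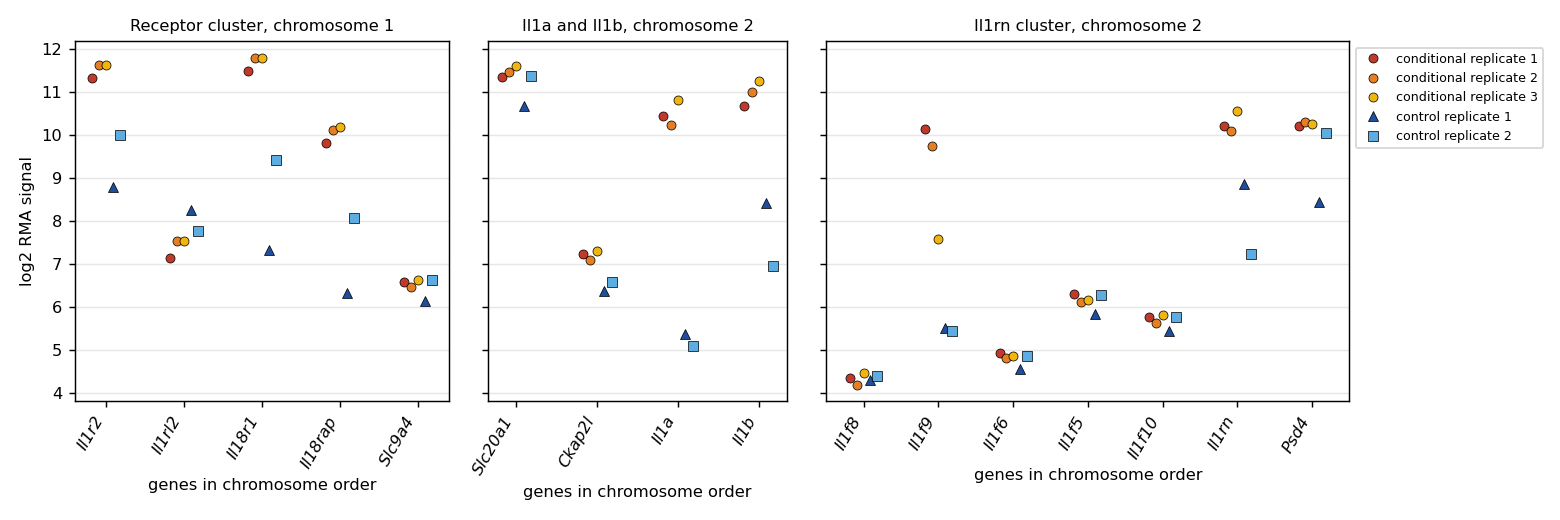
Log2 RMA signal on each array (circles for the 3 conditional arrays, triangle and square for control replicates 1 and 2) of protein-coding genes in chromosome order, for the receptor cluster, the Il1a and Il1b region and the Il1rn cluster; Il1r1 and Il1rl1 are left out. Genes with a wide gap between the groups lie beside genes without one, as with Il1f9 at 10.13, 9.73 and 7.59 beside Il1f6 at 4.94, 4.82 and 4.86 on the conditional arrays.

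Beyond the members, 73 genes of the pathway were listed by role, with earlier results of these data known, and 69 had a probe set. Of these, 1 passed the test as higher and 0 as lower (limma, adjusted p of 0.05 over all genes), against 0.371% and 0.0451% of all genes (0.416% in either direction), and 20 had an unadjusted p under 0.05, where 14.5% of all genes did. Groups did not overlap for 30 of the 69, with 23 higher and 7 lower, against the 30.5%, 17.4% and 13.1% of all genes given above. The median difference was 0.23, against 0.03 over all genes. The count past the test was 0 when any 1 conditional array was left out (limma, with 17, 15 and 14 at an unadjusted p under 0.05 without conditional replicates 1, 2 and 3), 16 without control replicate 1, where 6.10% of all genes passed, and 31 without control replicate 2, where 27.5% of all genes passed. Of the genes named here, Il33, Il18bp, Il18r1, Il18rap, Mefv and Ninj1 passed with either control array left out, Hax1 passed without control replicate 1, and Il1f9, Sigirr, Il1rl2, Il1rap, Naip2, Aim2, Txnip, Panx1, S100a13, Gzmb, Irak2, Tab2 and Tab3 passed without control replicate 2, each in limma with adjustment over all genes.

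The gene that passed was Cxcl2, a neutrophil-attracting chemokine gene that interleukin-1 induces. It read 11.93, 11.73 and 11.72 on the conditional arrays and 9.57 and 9.34 on the controls. All conditional values were above both controls and each group was tight. It rose by 2.34 ± 0.135 (SE, limma, adjusted p = 0.0182), which is 5.07-fold, with 2.23 from control replicate 1 and 2.46 from control replicate 2. Without conditional replicate 1, 2 or 3 its adjusted p in limma was 0.136, 0.267 or 0.159. The other 11 response genes did not pass in limma, with 2 at an unadjusted p under 0.05. These were Csf2, at 0.96 (limma, adjusted p = 0.0697), and Nfkbia, at 0.37 (limma, adjusted p = 0.242). Both had conditional values above both controls and were named here after their values were seen. Il6, Ptgs2 and Cxcl1, inflammatory genes named here after their values were seen, had control values as far apart as 8.89 and 5.34, 11.75 and 8.40, and 10.38 and 8.26, with control replicate 1 the higher each time, and their groups overlapped.

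None of the 5 other ligands passed in limma, with 2 at an unadjusted p under 0.05. Il33, the alarmin of barrier tissue, read 7.40, 7.18 and 7.43 on the conditional arrays against 9.35 and 8.19 on the controls. The groups did not overlap and control replicate 1 was highest. The difference of -1.43 ± 0.354 (SE, limma, adjusted p = 0.179) did not pass. It was -0.85 without control replicate 1. None of the 3 other antagonists and 6 other receptor chains passed in limma either, with 1 and 3 at an unadjusted p under 0.05. Il18bp, the interleukin-18 binding protein gene, was at 0.68 (limma, adjusted p = 0.0938), and Sigirr, an inhibitory receptor of the family, was at 0.12, but at 0.91 against control replicate 1 and -0.66 against control replicate 2. Il1rap, the accessory chain shared by the interleukin-1 and interleukin-33 receptors, was at -0.28, with -1.15 and 0.59 against the controls in the same order.

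None of the 11 other sensors measured passed in limma, with 2 at an unadjusted p under 0.05. Mefv, the pyrin gene, read 6.97, 7.06 and 6.94 on the conditional arrays and 5.99 and 6.18 on the controls. Its groups were apart by more than their spread, and the difference of 0.90 ± 0.116 (SE, limma, adjusted p = 0.0664) did not pass. Aim2, the sensor of cytosolic DNA, differed by 1.01 (limma, adjusted p = 0.374), with 1.69 against control replicate 1 and 0.33 against control replicate 2. Naip2, a receptor of bacterial secretion proteins, differed by 0.76 and Nlrp6, a sensor known from gut epithelium, by -0.29.

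The other 10 genes of inflammasome assembly, protease and pore included none past the test in limma, with 3 at an unadjusted p under 0.05. Ninj1, which ruptures the membrane of dying cells, differed by 0.77 (limma, adjusted p = 0.0810), Txnip by -0.79 (limma, adjusted p = 0.254), Casp4, the sensor protease for bacterial lipopolysaccharide, by 0.38 (limma, adjusted p = 0.269) and Panx1, a membrane channel gene, by 0.51 (limma, adjusted p = 0.411). Against control replicates 1 and 2 in turn, Txnip was at -1.08 and -0.49 and Panx1 at 0.87 and 0.15. Gsdmd, the pore gene cut by caspase-1 and named here after its values were seen, read 8.38, 8.33 and 8.47 against 8.22 and 8.60, with the groups overlapping. Casp12 was spread widely, at 9.69 and 6.27 on the controls and 5.30 to 7.27 on the conditional arrays, and was also named after its values were seen.

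Genes for cleavage and release of the ligands did not pass in any of 8 cases (limma, 1 at an unadjusted p under 0.05). Capn1, a protease of the family that trims the interleukin-1 alpha precursor, differed by 0.29, S100a13, a protein that accompanies interleukin-1 alpha during release, by 0.55, Gzmb by 0.78 and Hax1 by 0.76 (limma, adjusted p from 0.282 to 0.574). Against control replicates 1 and 2 in turn, Capn1 was at 0.55 and 0.027, Gzmb at 1.32 and 0.24 and Hax1 at 0.26 and 1.26. Nor did any of the 14 measured signalling genes pass, with a median of 0.30 and 5 at an unadjusted p under 0.05 in limma. The kinase gene Irak2 was at 0.88, the adaptor genes Tab2 and Tab3 at 0.70 and 0.69 and the kinase gene Map3k7 at 0.48 (limma, adjusted p from 0.124 to 0.175). Irak2 was at 1.19 against control replicate 1 and 0.56 against control replicate 2. For these 4 genes the conditional values were all above both controls.

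**Figure D4:**
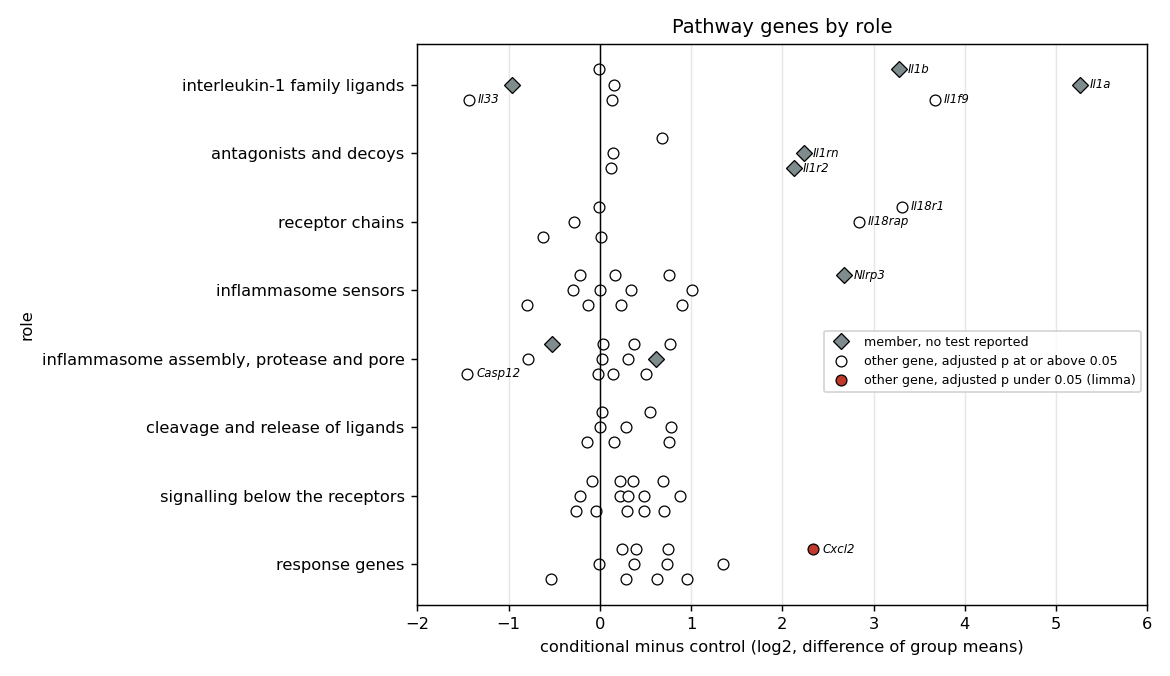
Difference of group means (horizontal axis, log2, conditional minus control) for the pathway genes with a probe set, by role (vertical axis); diamonds are members, for which no test is reported, open circles are other genes that did not pass and the filled circle is Cxcl2, which passed (limma). Labelled genes differ by more than 1.4, and most of the rest lie within 1 of zero.

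For the marker lists that follow, the shares over all genes are 17.4% with conditional values above both controls, 13.1% with conditional values below both and 14.5% with an unadjusted p under 0.05. Many myeloid markers were also higher on the conditional arrays, like Il1a, Il1b, Il1rn and Nlrp3. Of 18 measured macrophage, monocyte and dendritic cell markers, 11 had conditional values above both controls and none passed the test (limma, 9 at an unadjusted p under 0.05), and the mean over the list was 7.49 to 7.99 on the conditional arrays and 6.85 and 6.91 on the controls. Cd14 read 8.91, 9.07 and 10.17 against 7.69 and 6.26, Lyz2 8.92, 9.06 and 10.59 against 7.76 and 7.12, and Csf1r 7.18, 7.59 and 8.47 against 6.57 and 6.63, so conditional replicate 3 was highest in each. Conditional replicate 3 was also the highest array for Il1a, Il1b and Il1rn and the lowest of the conditional arrays for Nlrp3 and Il1f9. Other markers of the list had another order, and conditional replicate 2 was the highest array for Flt3, Ccr2 and Itgax. Of the 18 markers, 17 had a positive difference and 1 a negative one. The negative one was Mertk, which read 7.54, 7.34 and 6.58 against 9.86 and 6.99. Adgre1, the F4/80 gene, read 6.11, 6.10 and 6.61 against 5.42 and 5.77, and Fcgr1 read 6.40, 6.28 and 6.76 against 6.08 and 6.33. On the conditional arrays the mean of Adgre1 was at the 27.8 percentile of all genes and that of Fcgr1 at the 31.6 percentile. Those of Cd14, Lyz2, Csf1r and Mertk were at the 82.7, 84.3, 57.1 and 45.5 percentiles.

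Neutrophil markers had 8 of 11 with conditional values above both controls and 1 below, with list means of 6.78 to 6.85 against 5.96 and 6.23. None of them passed the test in limma. S100a8 read 6.9987, 7.25 and 6.85 against 5.74 and 5.69, and Ngp, S100a9 and Csf3r differed by 1.84, 1.35 and 1.29. Ly6g, the 1 marker below both controls, read 6.26, 5.95 and 5.71 against 6.27 and 6.96. Mast cell and basophil markers had 5 of 11 above both controls, with list means of 5.85 to 5.998 against 5.53 and 5.56, and natural killer and innate lymphoid markers had 4 of 10, with Tyrobp, a signalling adaptor of myeloid and natural killer cells, higher by 1.88 (limma, adjusted p = 0.0269). Regulatory T cells are known to carry Il1r2. Their markers had 8 of 10 above both controls and none past the test (limma, 7 at an unadjusted p under 0.05), with list means of 10.61 to 10.83 on the conditional arrays, 9.14 on control replicate 1 and 10.27 on control replicate 2. Of the epithelial markers, 7 of 14 lay below both controls, as Il18 did, and 2 passed the test as lower, Krt20 (-1.67, limma, adjusted p = 0.0327) and Cdhr5 (-1.41, limma, adjusted p = 0.0366). B and plasma cell markers had 3 of 8 below both controls, and stromal and endothelial markers 5 of 10. The part of these cell types in the values of the interleukin-1 family genes was not tested.

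**Figure D5:**
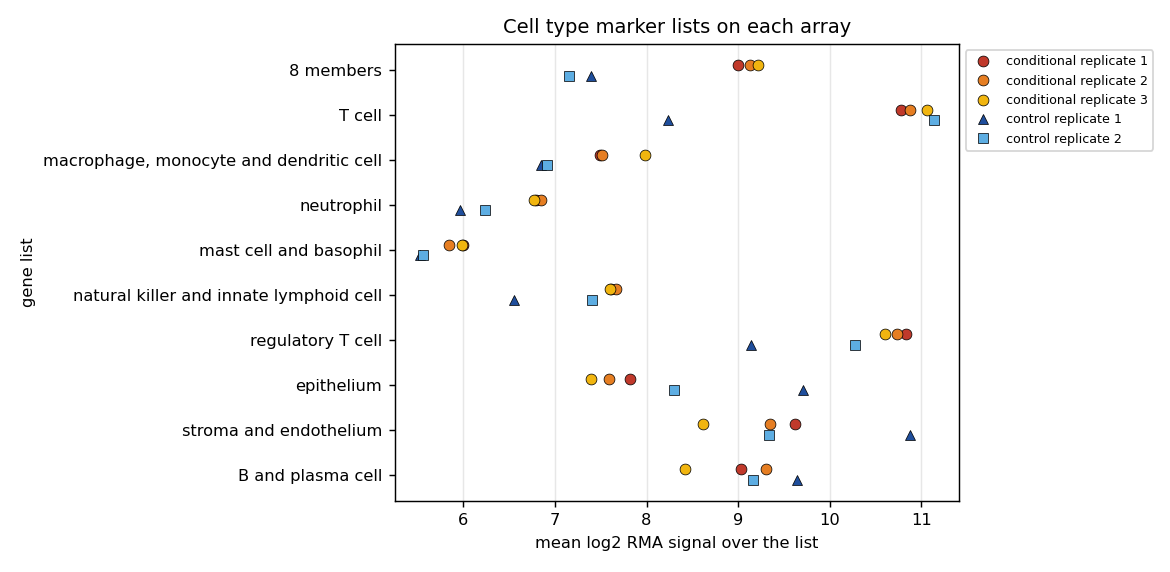
Mean log2 RMA signal over each marker list and over the 8 measured members (horizontal axis) on each array, circles for conditional replicates 1 to 3, triangle for control replicate 1 and square for control replicate 2. The 8 members average 8.99 to 9.22 on the conditional arrays and 7.39 and 7.16 on the controls, and control replicate 1 is the lowest array for T cell markers (8.24) and the highest for epithelial markers (9.71).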

How the data were processed

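RNA from sorted colon CD4 T cells was hybridised to 5 Affymetrix whole-transcript arrays, 3 conditional and 2 control. The deposited values are log2 signals, made by the authors with RMA (the oligo package) as the submitters' processing notes list. RMA corrects background and quantile-normalizes across arrays, which compresses differences of dim genes and removes global shifts. Versions of these tools and a genome build were not given in the sources used here. RNA integrity was at least 9.2 per the labels' protocols. There is no read depth, and the small number of arrays limits precision.

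Of 34760 probe sets, 21640 had 1 gene symbol in an older platform annotation, 1321 had several and 11799 were unnamed here. Older and newer interleukin-36 symbols were matched by gene number. Each of 19937 genes kept its probe set with the highest mean, and every measured member had only 1. Groups were compared with limma 3.58.1 in R 4.3.3 (lmFit, eBayes, no covariate, Benjamini-Hochberg over all genes, threshold 0.05), checked on simulated data. Members, pathway lists and marker lists were chosen with earlier results of these data known. Named by rule were the members, pathway genes past the threshold or, in a role without any, up to 4 with the smallest p, chromosome neighbours and the 3 nearest profiles; marker genes illustrate their lists. Promoters come from RefSeq (GRCm38.p6), searched for fixed letters. Alternatives were other normalizations, filters, probe set choices, variance models, a replicate block and each array left out.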

Additional observations from a re-analysis of the deposited data

How the results depend on the processing

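The 8 measured members kept their sign under every alternative in which they were present; the lower quartile filter removed Il18, and the median filter removed Il18 and Nlrp3. Their median difference of 2.18 stayed between 1.99 and 2.26. Over these settings Il1a ranged from 5.11 to 5.42, Nlrp3 from 2.57 to 2.79, Il1b from 2.56 to 4.005, Il1rn from 1.43 to 3.04 and Il1r2 from 1.51 to 2.74. With a single control array left, its spread is taken from the conditional arrays.

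The count of all genes past the threshold in limma, 83, was 40 after a second quantile normalization and 13 with array weights, and between 0 and 5474 with 1 array left out (1217 without control replicate 1, 5474 without control replicate 2, 0 without any conditional array). The count of pathway genes other than the members, 1, was 4 with the replicate number as a block and between 0 and 31 with 1 array left out. The cause of these shifts was not tested. Across genes, deviations of equal-numbered arrays from their group means correlated at 0.400 for replicate 1 and -0.287 for replicate 2. With only 2 controls, their deviations are exact opposites, so these correlations cannot tell whether equal-numbered arrays share more than a number. The block called 69 genes in all. It leaves conditional replicate 3, which has no equal-numbered control, out of the differences. The pathway genes the block added were Il1f9, Il18r1 and Il18rap (limma, adjusted p = 0.00199, 0.0370 and 0.0437). The block difference of Il1f9 was 4.46, the same as without conditional replicate 3, its lowest conditional array.

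Some values turned with the control array. Without control replicate 1 and without control replicate 2 in turn, the T cell marker median was -0.30 and 2.36, Il1f10 was at -0.033 and 0.29, Il1f5 at -0.077 and 0.36, Sigirr at -0.66 and 0.91 and Il1rap at 0.59 and -1.15. Of the other named pathway genes' values under alternatives, 349 kept their direction and side of the threshold and 3, all of Cxcl2, no longer passed. Those that newly passed did so only with the replicate block or with a single control array left. Arrays without a background call limit the folds of dim genes.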
